A study of Mus musculus with 8 samples.

Results

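This account covers 10 genes that build or finish the sugar chains on the surface of maturing thymocytes. Their RNA was measured in CD8 single-positive (CD8SP) thymocytes of control mice and of mice with the Ndrg3 gene deleted in T cells. The 10 genes were taken by symbol from a table of 47937 genes, and 10 of 10 passed the filter on low counts that left 14633 genes tested. They are the sialyltransferases St3gal1, St3gal4, St3gal6, St6gal1, St8sia1, St8sia4 and St8sia6, the branching enzymes Gcnt1 and Mgat5, and Cmah, which changes the sialic acid itself. CD8SP cells positive for TCRβ and high for MHC class I were sorted from the thymus of mice 6 to 7 weeks old, and RNA was sequenced from 4 Ndrg3ctrl mice (Ndrg3 +/fl;Lck-cre+) and 4 Ndrg3TKO mice (Ndrg3 fl/fl;Lck-cre+), with 1 library per mouse. All 8 mice thus carried the Lck-cre transgene, which acts in developing T cells, and at least 1 floxed Ndrg3 allele, so the controls were neither Cre-negative nor wild type. The 1 floxed allele of the controls is open to Cre as well, and its loss in them was not measured here. In these bulk samples, fewer cells of a type and less RNA per cell cannot be told apart.

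Sialic acids are acidic sugars that cap the ends of N-glycans, O-glycans and glycolipids. Each sialyltransferase attaches them by 1 kind of linkage, named in its symbol: St3gal enzymes make α2,3, St6gal enzymes α2,6 and St8sia enzymes α2,8 bonds. In the thymus, the capping of core 1 O-glycans during maturation hides the sites that peanut agglutinin binds, and the sialic acid load of CD8 and CD45 differs between immature and mature cells. Branching enzymes such as Gcnt1 and Mgat5 add arms to O- and N-glycans, and so create more ends that galactose, lactosamine and sialic acid can occupy.

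Total counts per library ranged from 21126698 to 32668081, and were 21126698 to 30048212 in Ndrg3ctrl against 29699102 to 32668081 in Ndrg3TKO (p = 0.0571, 2-sided exact permutation test over 70 splits). Ndrg3 itself gave 2336 ± 28.9 normalized counts in Ndrg3ctrl and 1500.1 ± 87.2 in Ndrg3TKO (SD, n = 4 each), a log2 fold change of -0.64 (adjusted p = 1.04e-05, edgeR quasi-likelihood test), and every Ndrg3TKO library lay below every control. These counts cover the whole gene, of which Cre removes 1 exon. Of the CD8SP defining markers (Cd8a, Cd8b1, Cd3e, Cd3g, Trac, Cd5, Runx3, H2-K1 and B2m), 9 of 9 were tested and 0 passed the threshold (0 also at an unadjusted p under 0.05 and by DESeq2). Summed Y-linked counts stood at 353 CPM (counts scaled to a common library total) in Ndrg3ctrl replicate 2, 389 in Ndrg3TKO replicate 2 and 413 in Ndrg3TKO replicate 3, and at no more than 0.0731 in the other libraries, so the groups were not balanced in this respect. Across all tested genes, 168 passed an adjusted p of 0.05, which is 1.15%, with 116 higher in Ndrg3TKO (0.793%) and 52 lower (0.355%).

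The levels of the 10 genes were first set side by side as RPKM (CPM divided by the exonic length of the gene in kilobases), since only a level per length can be compared between genes. That length counts every annotated exon, whether or not these cells use it. It runs from 2923 bases for St3gal4 to 20091 for St8sia4, so the order and the family shares rest on the annotation. St6gal1, which caps N-glycans with α2,6-linked sialic acid, stood first with 51.5 ± 3.57 RPKM (SD, 8 libraries). St3gal1, which caps core 1 O-glycans, followed with 44.7 ± 1.47 RPKM. Their ranges overlapped, although St6gal1 was above St3gal1 within each of the 8 libraries. Cmah, which turns the sialic acid Neu5Ac into Neu5Gc, had 34.9 ± 3.22 RPKM and St8sia1, which makes the ganglioside GD3, had 28.2 ± 1.16 RPKM, again with overlapping ranges. The middle of the order was held by Mgat5, the enzyme of β1,6 branching on N-glycans, with 12.3 ± 0.561 RPKM, and St3gal4, which caps lactosamine ends, with 11.1 ± 0.760 RPKM. These neighbours overlapped as well, and Mgat5 was the higher in 7 of 8 libraries. St8sia4, one of the enzymes that make polysialic acid chains, had 5.76 ± 0.750 RPKM, and St3gal6, a second enzyme that caps lactosamine, had 5.23 ± 0.382 RPKM. St8sia4 exceeded St3gal6 in 6 of 8 libraries. Their means were 5.12 against 5.44 RPKM in Ndrg3ctrl and 6.41 against 5.01 RPKM in Ndrg3TKO. The controls had no single order, since St8sia4 was the higher in replicates 1 and 2 and the lower in replicates 3 and 4. The last places went to St8sia6, which makes short α2,8 chains on O-glycans, with 0.326 ± 0.0796 RPKM, and to Gcnt1, which starts the core 2 branch of O-glycans, with 0.0900 ± 0.0502 RPKM. From first to last the mean level spanned 572-fold, 6 of the 10 genes lay above 10 RPKM and 2 below 1 RPKM.

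**Figure D1:**
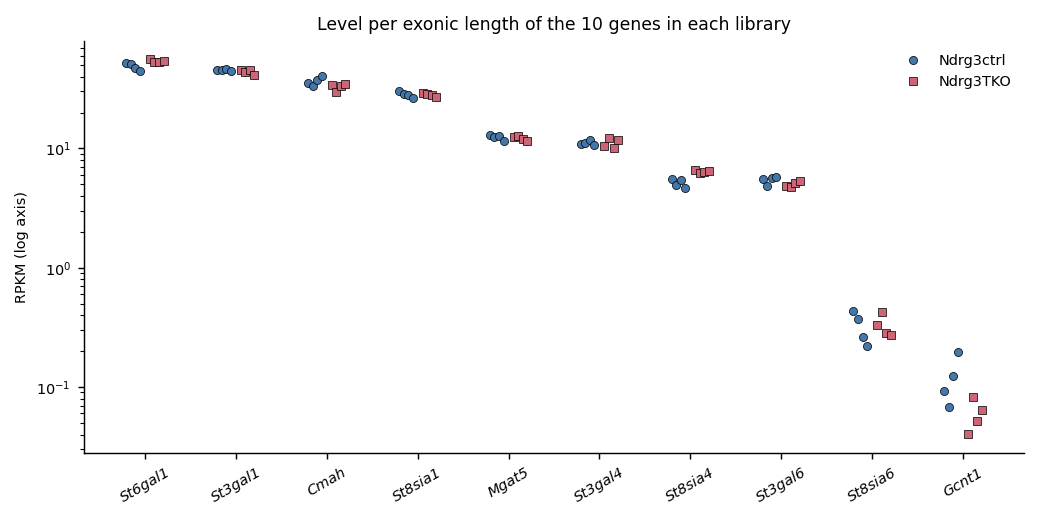
Level of each of the 10 genes in each library, as RPKM on a log axis, with circles for the 4 Ndrg3ctrl and squares for the 4 Ndrg3TKO libraries. The genes stand in the order of their mean, from St6gal1 at 51.5 to Gcnt1 at 0.0900 RPKM, and the step from St3gal6 to St8sia6 is the widest between neighbours.

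Within each enzyme family 1 gene held most of the summed RPKM. St6gal1 was the whole of its family of 2, since St6gal2 had no count in any library. Of the 6 St3gal genes, St3gal1 took 66.3% ± 0.606 of the family's RPKM in Ndrg3ctrl and 65.6% ± 1.87 in Ndrg3TKO. Of the 6 St8sia genes, St8sia1 took 83.9% ± 0.635 in Ndrg3ctrl and 80.7% ± 0.506 in Ndrg3TKO, while St8sia2, which also makes polysialic acid, St8sia3 and St8sia5 were at 0 counts in all 8 libraries. A count of 0 allows a level of up to 3 counts per library, which is 0.0918 to 0.142 CPM, and this floor covers counting error only. St8sia4 was therefore the only polysialic acid synthase with counts in these libraries.

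Between genotypes, 1 of the 10 genes was called: St8sia4 was higher in Ndrg3TKO, where 0.793% of all tested genes were called higher. The 10 genes were chosen with earlier results of these data known, so their counts beside such shares are descriptions only. The other 9 did not pass the threshold in the main fit, which has no replicate block, and 0 were called lower (0 by DESeq2 as well). At an unadjusted p under 0.05, which 10.9% of all tested genes reached, St8sia4 and St6gal1 were higher and Gcnt1 and Cmah lower. With a block for replicate number, 800 of all tested genes were called. St6gal1 (higher, adjusted p = 0.0469) and Cmah (lower, adjusted p = 0.0273) were then called as well (edgeR). The libraries of the groups did not overlap for 2 of the 10, St8sia4 and St6gal1, against 7.04% of all tested genes. The median log2 fold change of the 10 was -0.02 and that of all tested genes -0.0033, while the median size of the change was 0.08 and 0.09. Their summed level was 1477 to 1539 CPM in Ndrg3ctrl and 1469 to 1539 CPM in Ndrg3TKO, so the summed levels of the groups overlapped.

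**Figure D2:**
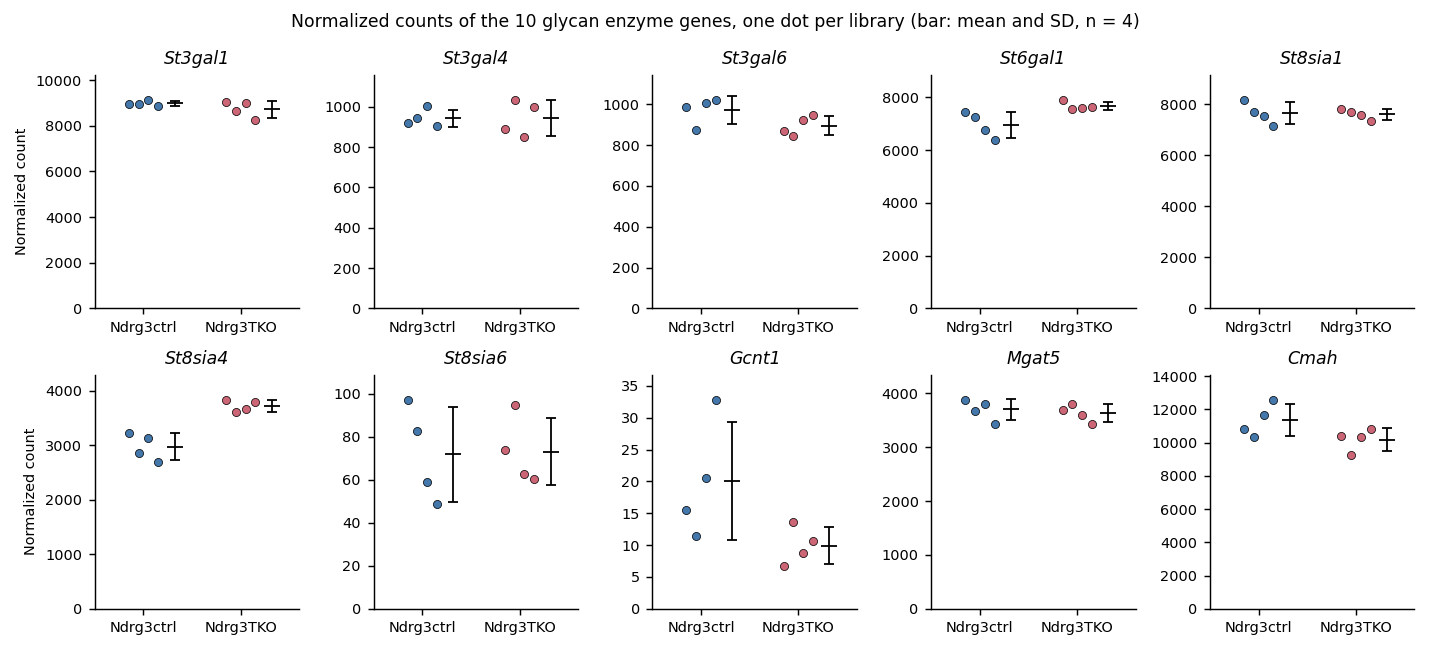
Normalized counts of the 10 genes, with 1 dot per library, blue for Ndrg3ctrl and red for Ndrg3TKO, and the mean and SD of 4 libraries beside them. Each axis starts at 0. The groups are apart for St8sia4 (2692 to 3223 against 3607 to 3835) and St6gal1 (6383 to 7457 against 7571 to 7920) and overlap in the other panels.

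St8sia4 (ENSMUSG00000040710, chr1:95587682-95667571, minus strand, GRCm38) gave 3223, 2864, 3135 and 2692 normalized counts in Ndrg3ctrl replicates 1 to 4, and 3835, 3607, 3666 and 3793 in Ndrg3TKO replicates 1 to 4. The lowest Ndrg3TKO library was above the highest control, and the Ndrg3TKO libraries lay closer together. The means were 2978 ± 245 and 3725 ± 107 (SD, n = 4 each), a rise of 25.0%. The log2 fold change was 0.32 with a standard error of 0.0591 and a 95% interval of 0.20 to 0.45 (adjusted p = 0.0143 over all tested genes, edgeR quasi-likelihood test). No exon of another annotated gene overlaps its exons. Without Ndrg3TKO replicate 1 the log2 fold change was 0.31 and the adjusted p 0.0519 (edgeR). In the 5 libraries without Y-linked counts (Ndrg3ctrl replicates 1, 3 and 4, Ndrg3TKO replicates 1 and 4) they were 0.34 and 0.0732 (edgeR). The size held in these 2 settings and the call did not. With a covariate for Y-linked counts in all libraries, the log2 fold change was 0.34 and the adjusted p 0.0037 (edgeR). Of 16 alternative settings, 14 kept the call.

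The start of St8sia4 and that of Gcnt4, the other gene of the pathway that rose, are shown because these are the glycan genes whose RNA passed the test. Each line is the 250 bases before a RefSeq start, in GRCm38.p6, 5′ to 3′ on the gene's strand, with motif matches in capitals. Motifs were searched on both strands. The letters of the GC box were GGGCGG, those of the CCAAT box are its name, and Runx factors were represented by the letters TGTGGT. For the T-box factors the letters searched were GTGTGA, and for the E-box they were CAGCTG. No match printed overlaps another.
St8sia4, chr1:95667595-95667844, minus strand: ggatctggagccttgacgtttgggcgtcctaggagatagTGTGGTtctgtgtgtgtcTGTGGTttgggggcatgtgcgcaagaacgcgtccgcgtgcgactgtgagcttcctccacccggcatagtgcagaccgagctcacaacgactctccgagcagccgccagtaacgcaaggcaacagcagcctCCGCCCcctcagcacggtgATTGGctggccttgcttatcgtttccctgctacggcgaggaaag
Gcnt4, chr13:96924094-96924343, plus strand: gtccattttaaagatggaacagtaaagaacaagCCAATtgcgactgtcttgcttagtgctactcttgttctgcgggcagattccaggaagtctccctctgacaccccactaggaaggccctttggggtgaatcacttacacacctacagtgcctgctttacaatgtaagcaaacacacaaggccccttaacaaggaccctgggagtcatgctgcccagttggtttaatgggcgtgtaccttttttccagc
The St8sia4 window held 2 Runx matches, 1 GC box and 1 CCAAT match, with 60.4% G and C and 19 CpG. The Gcnt4 window held 1 CCAAT match, with 48.8% G and C and 3 CpG, while the window of a second RefSeq start of Gcnt4, which is not printed, held 2 GC boxes, 1 E-box and 0 CCAAT matches, with 61.2% G and C and 15 CpG. Of all 32851 windows in the table, 14.0% held a Runx match, 32.7% a GC box, 33.8% a CCAAT match, 12.3% a T-box and 13% an E-box match, and the median window had 52.4% G and C and 6 CpG. A match is a description of these letters only.

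Because a ratio of 2 enzymes within 1 library does not depend on how libraries are scaled, 6 such ratios were compared between genotypes. The log2 ratio of St8sia4 to St8sia1 was -1.35, -1.43, -1.27 and -1.41 in Ndrg3ctrl replicates 1 to 4 and -1.03, -1.09, -1.05 and -0.95 in Ndrg3TKO replicates 1 to 4. The groups did not overlap, and the means differed by 0.33 (p = 0.0286, 2-sided exact permutation test, the smallest that 4 against 4 can give, and 0.171 after Benjamini-Hochberg adjustment over the 6 ratios). A single ratio at that smallest p cannot fall under 0.05 after adjustment over 6, so the adjusted value decides nothing here. Per length, St8sia4 made up 15.2% ± 0.648 of the St8sia family in Ndrg3ctrl and 18.4% ± 0.637 in Ndrg3TKO (SD, n = 4). The log2 ratio of St8sia4 to St8sia6 differed by 0.27 in the same direction, with overlapping groups (p = 0.229, adjusted 0.343, exact permutation test), and this difference was 0.15 without Ndrg3ctrl replicate 1 and 0.42 without Ndrg3TKO replicate 2.

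**Figure D3:**
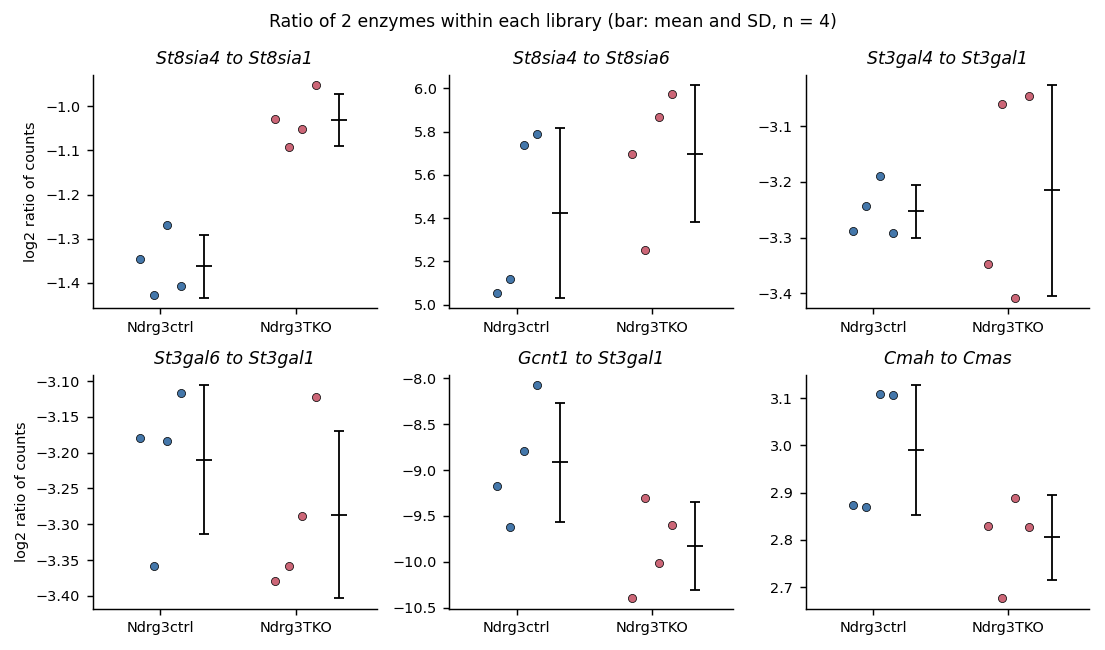
Log2 ratio of the counts of 2 enzymes within each library, for 6 pairs, with 1 dot per library and the mean and SD of 4 beside them, blue for Ndrg3ctrl and red for Ndrg3TKO. The groups are apart for St8sia4 to St8sia1 (-1.43 to -1.27 against -1.09 to -0.95) and overlap in the other 5 panels.

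The other α2,8 enzymes gave no call. St8sia1 had 8189, 7709, 7559 and 7139 normalized counts in Ndrg3ctrl and 7824, 7687, 7597 and 7340 in Ndrg3TKO. The ranges lay inside each other, with a log2 fold change whose 95% interval ran from -0.12 to 0.10 (adjusted p = 0.977, edgeR). St8sia6 gave 48.7 to 97.0 normalized counts in Ndrg3ctrl and 60.4 to 94.5 in Ndrg3TKO, on 46 to 104 raw counts per library. Its interval, from -0.46 to 0.51 on the log2 scale, leaves room for changes larger than the one in St8sia4. Exons of St8sia1 and St8sia6 overlap exons on the opposite strand, of Gm7457 over 149 bases and of Gm37126 over 112 bases.

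St6gal1, whose α2,6-linked product on N-glycans is bound by CD22 and limits binding of galectin-1, was higher in each Ndrg3TKO library than in any control without passing the threshold. It gave 7457, 7270, 6754 and 6383 normalized counts in Ndrg3ctrl replicates 1 to 4 and 7920, 7571, 7585 and 7628 in Ndrg3TKO replicates 1 to 4. The nearest libraries of the groups were only 7457 and 7571 apart. The means were 6966 ± 489 and 7676 ± 165 (SD, n = 4), with a log2 fold change of 0.14, a 95% interval of 0.02 to 0.26 and an adjusted p of 0.352 (edgeR). Among the 20 sialyltransferase genes, St6gal1 held 30.5% ± 1.34 of the summed RPKM in Ndrg3ctrl and 32.8% ± 0.479 in Ndrg3TKO.

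The α2,3 enzymes showed no difference past the test, and for St3gal1 the interval was narrow. St3gal1 gave 8954, 8956, 9147 and 8870 normalized counts in Ndrg3ctrl and 9039, 8635, 9010.0 and 8238 in Ndrg3TKO. The 2 groups overlapped, and the 95% interval of its log2 fold change ran from -0.14 to 0.06 (adjusted p = 0.814, edgeR). St3gal4 had 943 ± 43.0 normalized counts in Ndrg3ctrl and 942 ± 88.2 in Ndrg3TKO (SD, n = 4), with an interval of -0.16 to 0.16. St3gal6 gave 988, 873, 1006 and 1022 normalized counts in Ndrg3ctrl against 869, 842, 922 and 946 in Ndrg3TKO, a log2 fold change of -0.12 (95% interval -0.27 to 0.02, adjusted p = 0.560, edgeR). Relative to St3gal1, the log2 ratio of St3gal4 differed by 0.04 (p = 0.657, adjusted 0.657) and that of St3gal6 by -0.08 (p = 0.371, adjusted 0.446, exact permutation tests). Exons of St3gal6 share 1603 bases with Dcbld2, those of St3gal4 412 bases with 4930581F22Rik and those of St6gal1 200 bases with BC106179, all on the opposite strand, and the strand setting of the counting is not given in the sources used here.

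Cmah decides whether a cell carries Neu5Gc, the hydroxylated sialic acid of mouse tissues, in place of Neu5Ac. It gave 10812, 10345, 11651 and 12567 normalized counts in Ndrg3ctrl replicates 1 to 4, and 10395, 9225, 10314 and 10796 in Ndrg3TKO replicates 1 to 4. The groups overlapped, with control replicates 3 and 4 above all other libraries. The means were 11344 ± 978 and 10183 ± 672 (SD, n = 4), with a log2 fold change of -0.16, a 95% interval of -0.30 to -0.01 and an adjusted p of 0.419 (edgeR). Cmas, which activates sialic acid to the CMP form on which Cmah and the sialyltransferases act, had a log2 fold change of 0.03 (95% interval -0.09 to 0.15, adjusted p = 0.886, edgeR). The log2 ratio of Cmah to Cmas differed by -0.18 between the genotypes (p = 0.0857, adjusted 0.171, exact permutation test).

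For branching, Gcnt1 was close to its lower limit of detection and Mgat5 was not. Gcnt1, whose core 2 branch carries selectin ligands, had 16, 8, 21 and 31 raw counts in Ndrg3ctrl replicates 1 to 4 and 7, 15, 9 and 12 in Ndrg3TKO replicates 1 to 4. After scaling, these were 15.5, 11.4, 20.6 and 32.8 normalized counts against 6.71, 13.6, 8.70 and 10.7. The groups overlapped, since control replicate 2 lay below Ndrg3TKO replicate 2. The means were 20.1 ± 9.29 and 9.93 ± 2.95 (SD, n = 4), and the log2 fold change was -1.02 ± 0.368 (± SE, 95% interval -1.81 to -0.23, adjusted p = 0.290, edgeR). Its log2 ratio to St3gal1, which competes for the same core 1 acceptor, differed by -0.91 (p = 0.0857, adjusted 0.171, exact permutation test). Mgat5, whose branches bind galectins, gave 3702 ± 192 normalized counts in Ndrg3ctrl and 3636 ± 159 in Ndrg3TKO (SD, n = 4), and the 95% interval of its log2 fold change was -0.14 to 0.09. Its exons share 152 bases with Tmem163 on the opposite strand.

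The rest of the pathway was read from 67 further genes of 7 lists, of which 48 were tested. Of these 1 was called, Gcnt4, and it was higher, which compares with the 0.793% of all tested genes that were called higher, while 0 were called lower (6 at an unadjusted p under 0.05, and 1 by DESeq2, Man1c1). These lists too were chosen with earlier results known, so the comparison is a description only. The median log2 fold change of the 48 was -0.03, with 19 above and 29 below 0. Gcnt4 (ENSMUSG00000091387) encodes another enzyme that starts the core 2 branch. It gave 62.1, 52.6, 78.4 and 78.3 normalized counts in Ndrg3ctrl and 111, 121, 134 and 149 in Ndrg3TKO, so the groups were apart. Its means were 67.9 ± 12.7 and 128.9 ± 16.5 (SD, n = 4), a 1.89-fold rise and 0.92 ± 0.166 on the log2 scale (± SE, adjusted p = 0.0132, edgeR). The adjusted p was 0.0604 without Ndrg3ctrl replicate 1, 0.0548 without Ndrg3TKO replicate 4 and 0.0849 in the 5 libraries without Y-linked counts, with log2 fold changes of 0.87, 0.84 and 0.84 (edgeR). With a covariate for Y-linked counts in all libraries, the log2 fold change of Gcnt4 was 0.96 and the adjusted p 0.0049 (edgeR). Of 16 alternative settings, 13 kept the call. Of the RPKM of the 4 Gcnt genes, Gcnt4 held 78.1% ± 3.86 in Ndrg3ctrl and 88.8% ± 2.14 in Ndrg3TKO, and Gcnt1 19.6% ± 5.11 and 6.04% ± 1.73. A share depends on the other genes of the family, so a rise of Gcnt4 alone lowers that of Gcnt1. Gcnt1 had 7 to 31 raw counts and was itself not called. With a mean of 0.668 RPKM for Gcnt4, both of these core 2 enzymes lay below 1 RPKM.

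Step by step, no other gene of these lists passed the threshold. Among the other sialyltransferases 6 of 13 were tested and 0 called (2 lower at an unadjusted p under 0.05, 0 by DESeq2), led in level by St6galnac4, which adds sialic acid to already capped O-glycans, with 8.03 RPKM and a log2 fold change of -0.15 (adjusted p = 0.445). In the synthesis and transport of sialic acid 5 of 6 were tested and 0 called (0 at an unadjusted p under 0.05 and 0 by DESeq2), with Nans, the Neu5Ac 9-phosphate synthase, at 10.7 RPKM. Of the sialidases and O-acetylation genes 4 of 6 were tested and 0 called (0 unadjusted, 0 by DESeq2), with Casd1, which O-acetylates sialic acid, at 19.4 RPKM. The median log2 fold changes of these 3 lists were 0.0038, -0.07 and -0.08, beside -0.0033 for all tested genes.

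The lists of core and branch enzymes were larger. For the start and cores of O-glycans 12 of 15 were tested, Gcnt4 was the 1 called, 2 were higher and 2 lower of the 4 with an unadjusted p under 0.05, and Galnt6, which begins O-glycans on serine and threonine, led at 96.6 RPKM. For N-glycan trimming and branching 10 of 13 were tested and 0 called (1 lower at an unadjusted p under 0.05), and Mgat2 led at 26.7 RPKM. The exception by tool was Man1c1, a mannosidase that trims N-glycans, with a log2 fold change of -0.43 and an adjusted p of 0.0779 by edgeR, called lower by DESeq2. For galactose, lactosamine and fucose 8 of 11 were tested and 0 called (0 unadjusted, 0 by DESeq2), with B4galt1, which makes the lactosamine that St6gal1 caps, at 59.9 RPKM. Ganglioside synthesis had 3 of 3 tested and 0 called (1 lower unadjusted, 0 by DESeq2), and its B4galnt1, the GM2 and GD2 synthase, stood at 242 RPKM, above all 10 genes described here.

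**Figure D4:**
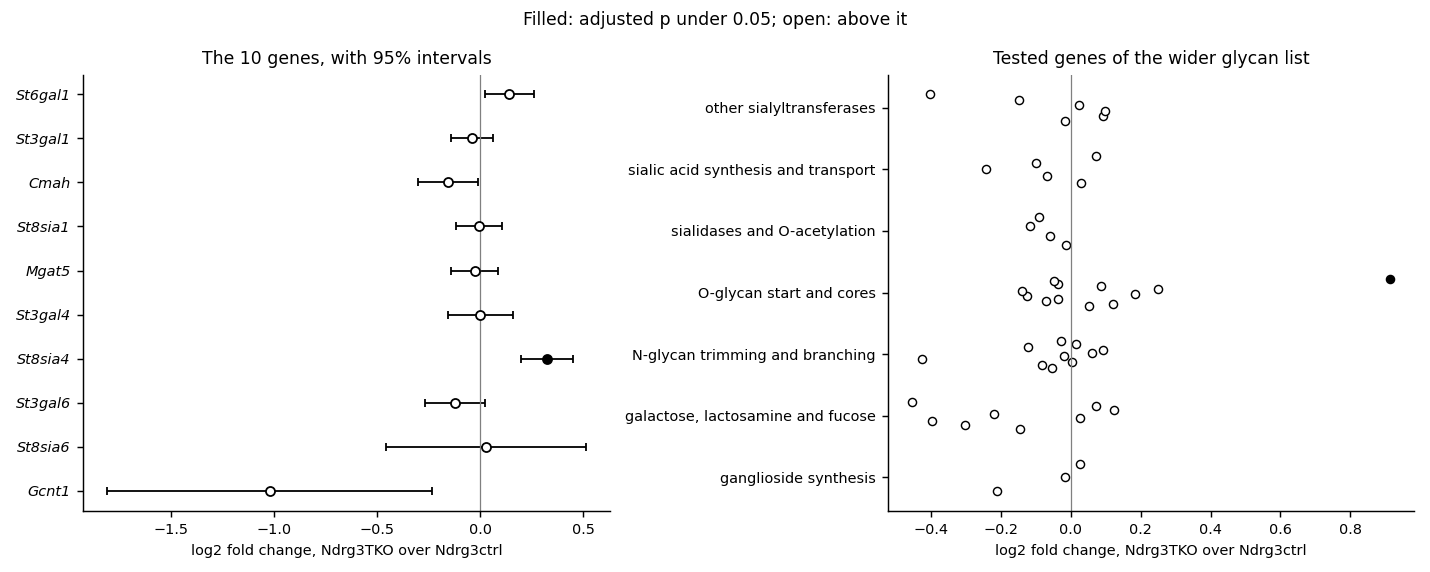
Log2 fold change of Ndrg3TKO over Ndrg3ctrl for the 10 genes with 95% intervals (left) and for the 48 tested genes of the 7 other glycan lists, 1 point per gene (right), filled where the adjusted p was under 0.05. St8sia4 at 0.32 on the left and Gcnt4 at 0.92 on the right are the filled points, and Gcnt1 has the widest interval of the 10.

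RNA of the proteins that carry these glycans gave no call. Of 6 carriers 6 were tested and 0 passed the threshold (0 at an unadjusted p under 0.05, 0 by DESeq2), with log2 fold changes from -0.13 for Spn, which encodes the heavily sialylated CD43, to 0.05 for Ptprc, which encodes CD45. Cd8b1 and Cd8a, whose products carry sialylated O-glycans on the CD8 stalk, had log2 fold changes of -0.02 each, Selplg, the P-selectin ligand, 0.04, and Cd44, the hyaluronan receptor, -0.07. Of 6 lectins that bind these glycans 4 were tested and 0 called (1 lower at an unadjusted p under 0.05, 0 by DESeq2). Their log2 fold changes ran from -1.10 to 0.01, and the smallest adjusted p was 0.311 (edgeR). The groups did not overlap for 1 of the 4, against 7.04% of all tested genes.

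Marker lists of other stages and cells were set beside these results. The summed level of 6 immaturity markers was 498 to 551 CPM in Ndrg3ctrl and 574 to 650 CPM in Ndrg3TKO, with 0 of 4 tested genes called (2 higher at an unadjusted p under 0.05, Ccr9 and Dntt, and 1 by DESeq2), and Rag2 and Ptcra at 4 raw counts or fewer. Of the 4 tested, 3 had a log2 fold change above 0 and 1 below, over a range of -0.46 to 0.45. That of 5 maturity markers was 1762 to 2120 CPM and 1595 to 1803 CPM, with 0 of 5 called, 4 of 5 lower at an unadjusted p under 0.05 and 0 by DESeq2. The immaturity sums of the genotypes did not overlap and the maturity sums did, and their part in the results for St8sia4 and Gcnt4 was not tested. Of the B cell markers, Cd79b gave 315 to 377 normalized counts in Ndrg3ctrl against 234 to 266 in Ndrg3TKO (log2 fold change -0.43, adjusted p = 0.0529 by edgeR, called lower by DESeq2), with Pax5 at 2 raw counts or fewer and Ms4a1 at 0. The γδ and NKT sum was 10.9 to 14.5 against 12.1 to 16 CPM, so the sums overlapped. Of these 4 markers 2 were tested and 1 called, Klrb1c, which was higher (log2 fold change 2.62, adjusted p = 0.00149, edgeR). For comparison, 0.793% of all tested genes were called higher. The other tested marker had a log2 fold change of -0.03, and Sox13 and Zbtb16 were untested at 11 raw counts or fewer. The authors' CD1d tetramer staining found hardly any type I invariant NKT cells in the Ndrg3TKO thymus. The cell source of the Klrb1c counts was not tested. CD4SP markers summed to 1.42 to 3.39 against 1.38 to 2.05 CPM, myeloid and dendritic markers to 0.585 to 1.33 against 0.568 to 0.942 CPM, and thymic epithelium markers to 1.68 to 3.05 against 1.20 to 2.5 CPM.

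The profile of St8sia4 over the 8 libraries was most like those of Gm23908, a predicted non-coding gene, Smc4, a condensin subunit, and Kdm2b, a histone demethylase, with Pearson r of 0.983, 0.977 and 0.975 in log2 CPM over the 8 libraries, which differ in depth and genotype. Their own log2 fold changes were 0.74, 0.21 and 0.18, with adjusted p of 0.329, 0.0807 and 0.0927 (edgeR). Among the 10 genes themselves, after the group means were removed, St6gal1 and St8sia1 varied together (r = 0.89 over 8 libraries), as did St8sia1 and St8sia6 (r = 0.86), while St8sia6 and Cmah varied in opposite directions (r = -0.91). These correlations are descriptions, since the values of 1 library share its depth and scaling.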

How the data were processed

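CD8SP TCRβ+MHC1high thymocytes of 4 Ndrg3ctrl and 4 Ndrg3TKO mice were sequenced as stranded, rRNA-depleted total RNA, with 1 library per mouse. Reads were trimmed (cutadapt), aligned to GRCm38.p4 (STAR) and assigned to genes (featureCounts) by the authors, who deposited whole-number counts per gene, which are not normalized. The strand setting is not given in the sources used here. All 8 columns were mapped by label, leaving 0 unmapped. Genes were matched by Ensembl identifier to GENCODE M21 (GRCm38, 98.7% matched), which gave symbols, positions and exon lengths.

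Counts were filtered with filterByExpr, scaled by TMM and tested with edgeR 4.0.16 (limma 3.58.1, R 4.3.3) by glmQLFit (robust) and glmQLFTest, with Benjamini-Hochberg adjustment over 14633 genes and a threshold of 0.05. Normalized counts are counts over the TMM-scaled library size times the mean library total. RPKM are TMM-scaled. Standard errors and intervals come from the same fit. Ratios were tested by 2-sided exact permutation (scipy 1.17.1). DESeq2 1.42.0 and further settings served as alternatives. On simulated counts for this comparison (14488 genes), the edgeR test recovered 88.9% of changes of log2 1 and 56.6% of those of log2 0.5, with 4.64% of calls false. Replicates of one group differed by a chi-square of 9.95 to 33.6 per gene over all within-group pairs, so none was a duplicate. Libraries carried no molecular identifiers, so reads copied by PCR count separately and floors cover counting error alone.

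Genes named singly are the 10 genes, Ndrg3, Cmas, genes of the other glycan lists past the threshold or highest in level of their list, the 6 carriers, the 3 genes most like a called member, and markers where a list count was 5 or fewer. Man1c1 was named because DESeq2 called it. The members and lists were chosen with earlier results of these data known. Promoter windows are from RefSeq (GRCm38.p6). One marker of the lists is not reported here.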

Additional observations from a re-analysis of the deposited data

Results flagged for a closer look

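In 70 groups of 4 libraries, over 35 measures, 3 had 1 library far from the other 3 by Dixon's test at the 95% level, where chance alone gives about 1 in 20, or 3.5. For St6gal1, Ndrg3TKO replicate 1 had 7920 normalized counts and the other 3 had 7571 to 7628. The summed level of 4 Y-linked genes was 353 CPM in Ndrg3ctrl replicate 2 and at most 0.0731 CPM in the other controls. The mitochondrial share of counts was 0.636% in Ndrg3ctrl replicate 4 and 0.803% to 0.820% in the other controls.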

How the results depend on the processing

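Direction and call were recomputed with DESeq2, 2 other scalings, 2 other filters, the replicate block, a covariate for Y-linked counts, and each library left out, and, chosen after seeing the data, in the 5 libraries without Y-linked counts. Other scalings moved the median of all genes by no more than 0.0048 (log2). The number of genes called was 168 (116 higher, 52 lower) and became 309 with DESeq2 (188 and 121), 274 without a filter (176 and 98), 437 with the Y-linked covariate (262 and 175), 92 without the Y-linked libraries (73 and 19), and 90 to 158 with a library left out (72 to 110 and 18 to 48). Of the 10 genes, 1 was called, against 0 without the Y-linked libraries and 0 to 1 higher (0 lower) with a library left out. In the wider list, 1 was called, against 2 with DESeq2 and 2 without a filter (1 higher, 1 lower each), 3 with the Y-linked covariate (2 and 1), 0 without the Y-linked libraries and 0 to 2 with a library left out (0 to 1 higher, 0 to 1 lower).

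Same-numbered libraries correlated at -0.06 to 0.42, with 3 of 4 pairs above 0.1. The main fit therefore left them unpaired, though 6 of 8 libraries correlated best with the library of their own number. The column headers number the libraries in runs that each hold both groups, and what a run shares is not stated. Replicates 2 and 3 of both groups share a run, so replicate number is not the same as run, and no block for run was fitted. With the replicate block, 800 genes were called (435 higher, 365 lower), 3 of the 10 genes (2 higher, 1 lower: St8sia4, St6gal1 at adjusted p = 0.0469 and Cmah at 0.0273, edgeR) and 3 of the wider list (2 and 1). The St8sia4 to St8sia1 difference of 0.33 had p = 0.125 with the replicate block, the smallest its exact sign-flip test can give.

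Directions turned where values were near 0. St3gal4 became 0.00065 with DESeq2, 0.00056 with RLE, 0.0043 with library totals, 0.0021 without a filter, 0.0013 where each library had to hold 10 counts, and 0.0031 without the Y-linked libraries, and ranged from -0.048 to 0.047 with a library left out. St8sia6 became -0.042 with the Y-linked covariate and -0.029 without the Y-linked libraries, and ranged from -0.12 to 0.22. With a library left out, St8sia1 ranged from -0.040 to 0.029, Mgat5 from -0.061 to 0.00039 and the St3gal4 to St3gal1 ratio from -0.019 to 0.10. The causes were not tested. Gcnt1 did not pass the filter of 10 counts in each library and was not tested there. Depth limits Gcnt1 and St8sia6 most, at 7 to 31 and 46 to 104 raw counts.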

Other observations

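In the ganglioside branch, enzymes of neighbouring steps stood at very different levels. Ugcg, which makes glucosylceramide, had 80.8 RPKM over the 8 libraries and B4galnt1 242 RPKM. St8sia1, which extends GM3 to GD3, had 28.2 RPKM, whereas St3gal5, which makes the GM3 it acts on, had 0.375 RPKM, with 16.7 to 44.1 normalized counts in Ndrg3ctrl and 21.3 to 33.6 in Ndrg3TKO. These genes were chosen after their values were seen.

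A pair of branching genes left out of the tests by the filter on low counts had more raw counts in each Ndrg3TKO library than in any control. The share of 7.04% without overlap is for normalized counts of tested genes and does not apply to them. No share was computed for raw counts of genes under the filter. Total counts also differed, at 21126698 to 30048212 in Ndrg3ctrl and 29699102 to 32668081 in Ndrg3TKO. Mgat3, which adds the bisecting arm of N-glycans, had 1, 2, 3 and 0 raw counts in Ndrg3ctrl and 12, 11, 10 and 6 in Ndrg3TKO. Gcnt3, a further core 2 enzyme, had 4, 1, 1 and 0 against 5, 7, 9 and 6. Galnt3, an enzyme that begins O-glycans, was left out by the same filter and lay the other way in normalized counts, with 7, 7, 7 and 15 raw counts against 3, 4, 3 and 7. In the edgeR fit without a filter on low counts, Gcnt4 was the 1 gene of the wider list called higher, so neither Mgat3 nor Gcnt3 passed the threshold there. All 3 were singled out after their values were seen, and many of these values lie at or near the floor of 3 counts.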
